A study of Bos taurus with 4 samples.

Results

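The 8 genes described here encode proteins of the tight junction: the claudins CLDN3, CLDN4, CLDN6 and CLDN7, occludin (OCLN), cingulin (CGN), the scaffold ZO-1 (TJP1) and the junctional adhesion molecule JAM-A (F11R). They were taken as all array probes whose platform annotation carries 1 of these 8 symbols, which gave 11 of 43794 bovine probes: 3 for CGN, 2 for F11R and 1 for each of the other genes. All 11 were bright enough to be tested, among 36447 tested probes and 13519 named genes in all. The samples were pools of early bovine (Bos taurus) blastocysts made in the laboratory from Holstein heifer oocytes and taken at 168 hours after fertilization in vitro. Each of 4 two-colour arrays held 1 heifer and set its pool from a donor age of 11 months against its pool from 14 months, and the series title places the study in donors around puberty. Every heifer had received progesterone and FSH, the follicle-stimulating hormone, before collection, so both ages share that stimulation, and donor age cannot be told apart from when the oocytes were collected. The 11-month pool was labelled with the dye Cy5 in replicates 1 and 2 and with Cy3 in replicates 3 and 4. The dye orientation is therefore shared by 2 heifers on either side and cannot be told apart from a difference between those pairs of heifers.

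Tight junctions form the seal between the outer cells of the blastocyst, the trophectoderm, and allow fluid pumped across that layer to be held in the cavity. Claudins and occludin span the membrane and meet their partners on the neighbouring cell, F11R is an immunoglobulin-like adhesion protein of the same contact, and TJP1 and CGN lie beneath the membrane and tie the contact to the cytoskeleton. In the cow the trophectoderm is the epithelium that later attaches to the uterus.

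The defining genes of the blastocyst lineages were measurable. Of 13 tested trophectoderm markers 12 lay above the negative control spots in all 8 pools, among them CDX2, GATA3 and KRT8, as did 7 of 8 inner cell mass markers and 4 of 6 primitive endoderm markers. Summed over the 13 trophectoderm markers, the log2 signal ranged from 16.2 to 16.7 in the 11-month pools and from 16.2 to 16.9 in the 14-month pools. The 10 cumulus and granulosa markers summed to 10.6 to 10.7 at 11 months and to 10.5 to 10.7 at 14 months, with CYP19A1, INHBA, TNFAIP6, STAR and GREM1 above the limit in all 8 pools and no tested marker below it in every pool. No marker of these lists passed the adjusted threshold for age. In pools of whole embryos, fewer cells of a type and less RNA per cell cannot be told apart.

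Below, a level is the log2 signal of a probe in 1 pool after loess within arrays and scaling between arrays. A ratio is the difference of the levels of the 2 ages on 1 array, 11 over 14 months, so that a positive ratio is a higher level in embryos of the younger donor. All 88 levels of the 11 probes exceeded the negative control limit of their channel, set 2 SD above the mean of 153 negative control spots, which lay between 6.56 and 6.73. Levels are compared only within a probe.

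None of the 11 probes passed an adjusted p of 0.05 for donor age, with a lowest adjusted p of 0.442 in limma's moderated test. The same was true of the whole array, where 0 of 36447 probes (0%) passed and 3448 (9.46%) had an unadjusted p under 0.05, with 3.7% of all probes higher and 5.76% lower at 11 months. Among the 11 probes that number was 1, CLDN3, which was lower, a share near that background. The deposited ratios gave CLDN3 alone as well, against 9.2% of all probes. Of the 11 mean ratios 6 were positive and 5 negative, with a median of 0.08, against 0.00 over all tested probes. CLDN3 was also the one probe of the 11 with 1 sign on all 4 arrays, which 16.7% of all probes had. In none of the 11 did the levels of the 4 younger and the 4 older pools lie apart without overlap, which was the case for 3.03% of all probes.

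**Figure D1:**
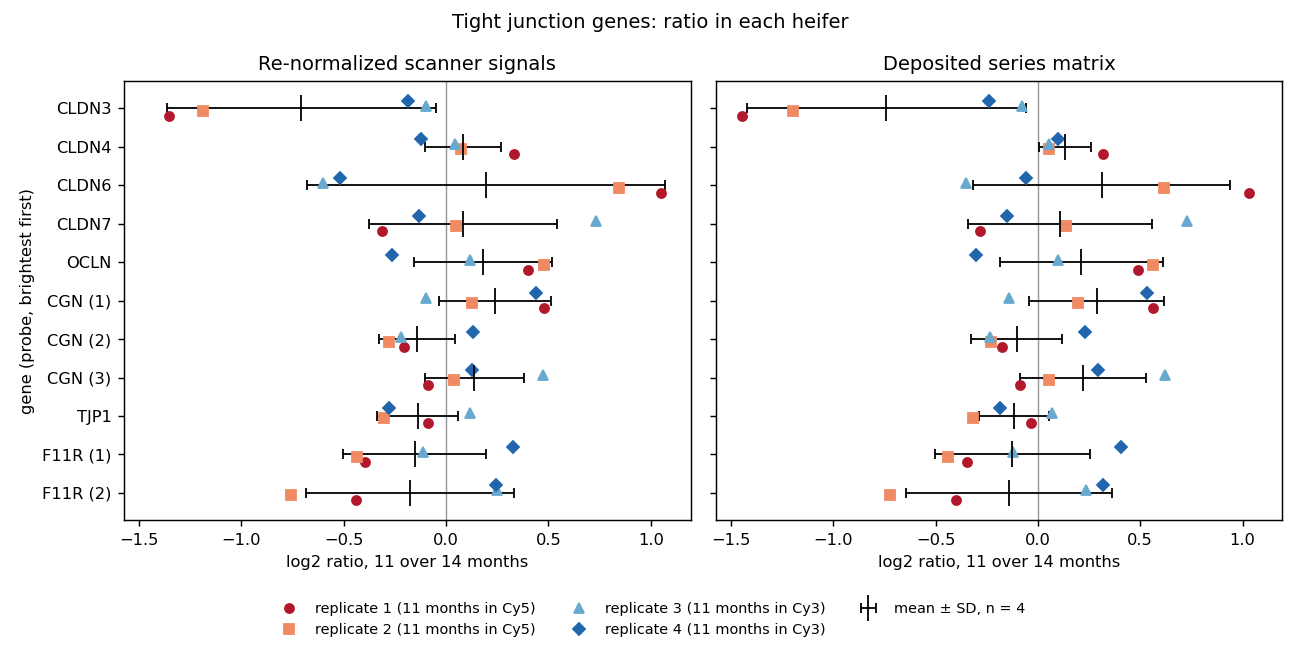
Log2 ratios (11 over 14 months, x axis) of the 11 tight junction probes in each of 4 heifers, from re-normalized scanner signals (left) and from the deposited series matrix (right). Points are heifers, with warm colours for 11 months in Cy5 and cool colours for 11 months in Cy3, and bars are the mean ± SD. CLDN3 is below 0 in all 4 heifers, near -1.3 in replicates 1 and 2 and near -0.1 in replicates 3 and 4, and CLDN6 lies on opposite sides of 0 in the 2 pairs.

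CLDN3, a barrier-forming claudin and a receptor of the Clostridium perfringens enterotoxin, had the largest mean ratio of the 11 probes. In the 11-month pools of replicates 1 to 4 its level was 7.19, 6.95, 7.04 and 7.32. In the 14-month pools it was 8.54, 8.14, 7.14 and 7.50. The 14-month pools of replicates 1 and 2 stood above the other 6 pools, which lay together, and the ranges of the ages overlapped. The younger pools were only 0.36 to 0.70 above the negative control limit, and the 14-month pools of replicates 3 and 4 only 0.56 and 0.94. The signal was therefore weak in these 6 pools, and so in both pools of replicates 3 and 4.

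Before normalization, the background-subtracted CLDN3 signal was higher in Cy3 on each array, at 186 to 474 against 57 to 128 in Cy5. In replicates 3 and 4 the 11-month pool was thus the brighter at that stage. The negative sign of those arrays appeared only with normalization. A higher Cy3 signal at that stage was not particular to CLDN3. It was also seen on each array for CLDN7, OCLN, TJP1, both F11R probes and the CGN probes EMBV3_41713 and EMBV3_29056. CLDN4 and the CGN probe EMBV3_41371 were mixed, and CLDN6 was higher in Cy5. After normalization, the CLDN3 ratios of replicates 1 to 4 were -1.35, -1.19, -0.10 and -0.18. Their mean was -0.71 ± 0.66 (SD, n = 4), or 1.63-fold lower at 11 months, with a 95% interval of -1.26 to -0.15. In limma the unadjusted p was 0.0203 and the adjusted p 0.442. The unadjusted p of CLDN3 was 0.0555 with median centring of the arrays, 0.0874 without replicate 1 and 0.0882 without replicate 2, where the mean was -0.49 and -0.55. The deposited series matrix gave CLDN3 ratios of -1.45, -1.20, -0.08 and -0.24, with a mean of -0.74 and an adjusted p of 0.390. The mean ratio was -1.27 in replicates 1 and 2 and -0.14 in replicates 3 and 4, and this difference between the orientations passed, with an adjusted p of 0.0350. Leaving out replicate 1, 2 or 3 ended that call for CLDN3, with adjusted p of 0.187, 0.194 and 0.0673. With a dye term in the fit, the CLDN3 age difference had a 95% interval of -0.89 to -0.52 and an adjusted p of 0.0545. In that fit 5936 probes (16.3%) had an unadjusted p under 0.05. The dye term also takes out the difference between the pairs of heifers, so that this interval does not measure the spread over the 4 heifers. None of the 4 CLDN3 ratios lay within it. When mean spot signals were used in place of medians, CLDN3 was at -0.52, with an unadjusted p of 0.130.

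CLDN4, a barrier claudin bound by the same toxin, is the direct neighbour of CLDN3 in the ARS-UCD2.0 gene table, with no gene listed between them. Its level was 13.68, 13.05, 13.57 and 13.65 in the 11-month pools of replicates 1 to 4 and 13.35, 12.98, 13.53 and 13.77 in the 14-month pools. The levels of both ages overlapped throughout, and both pools of replicate 2 were the lowest of their age. The CLDN4 ratios were 0.33, 0.07, 0.04 and -0.12, with a mean of 0.08 ± 0.19 (SD, n = 4), a 95% interval of -0.16 to 0.33 and an adjusted p of 0.887. In the deposited matrix the ratio of replicate 4 was 0.10, so that all 4 were positive there, with a mean of 0.13. The ratio of CLDN3 minus that of CLDN4 was -1.69, -1.26, -0.14 and -0.06, negative in all 4 heifers. Its exact two-sided sign-flip p was 0.125, the smallest that 4 heifers can give, and this pair was compared after its values had been seen.

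**Figure D2:**
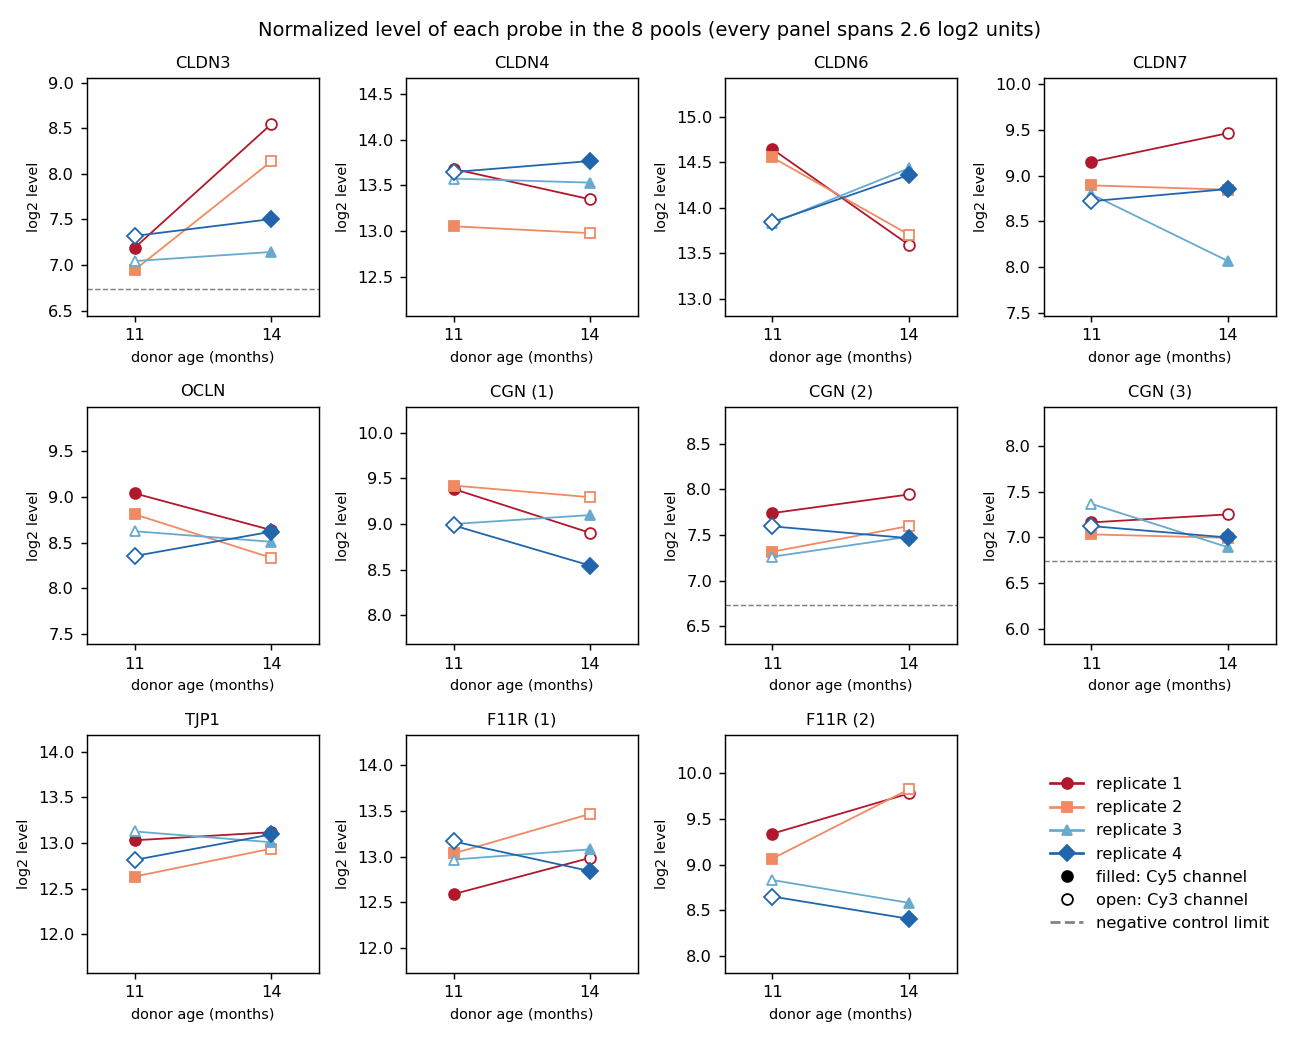
Normalized log2 level (y axis) of each of the 11 tight junction probes in the 8 pools, by donor age in months (x axis). Lines join the pools of 1 heifer, filled symbols are Cy5 channels and open symbols Cy3 channels, and the dashed line, drawn where it is in range, is the highest negative control limit. The 2 high pools of CLDN3 are the 14-month pools of replicates 1 and 2, and the 4 filled symbols of CLDN6 lie above its 4 open ones.

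CLDN6, a claudin of embryonic epithelia, varied most among heifers, with an SD of 0.87, and did so along the dye orientation. In the 11-month pools of replicates 1 to 4 its level was 14.64, 14.55, 13.83 and 13.84, and in the 14-month pools 13.59, 13.70, 14.43 and 14.36. The 4 pools labelled with Cy5 were all above the 4 labelled with Cy3, at 14.36 to 14.64 against 13.59 to 13.84. Of all tested probes 6.18% had Cy5 and Cy3 pools that did not overlap, and CLDN6 was the only one of the 11 that did. Before normalization, the background-subtracted CLDN6 signal was likewise higher in Cy5 on each array, at 19238 to 23480 against 12657 to 17597 in Cy3.

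The CLDN6 ratios of replicates 1 to 4 were 1.05, 0.85, -0.60 and -0.52. The mean over the 4 heifers was 0.19 ± 0.87 (SD, n = 4), with a 95% interval of -0.53 to 0.92 and an adjusted p of 0.913. The orientation difference passed with an adjusted p of 0.0197. Among the 13 trophectoderm markers the orientation difference passed for 2, the keratins KRT8 and KRT18, against 1.41% of all probes. Signs were opposed between the orientations in 4 of the 13, against 24.9% of all probes. KRT8 was at 1.37, 1.15, -1.57 and -1.61 and KRT18 at 0.98, 0.55, -0.63 and -0.71, with adjusted p of 0.00891 and 0.0330. The keratin KRT19 differed in the other direction, at -0.07, 0.07, 1.27 and 0.84, with an adjusted p of 0.0632, so that the markers of this layer did not share 1 direction. Their part in the CLDN6 pattern was not tested. In the deposited matrix the CLDN6 ratios were 1.03, 0.62, -0.35 and -0.06, the same signs with a smaller spread, and the orientation difference there had an adjusted p of 0.0559. Without replicate 1 or 2 the CLDN6 orientation difference had an adjusted p of 0.165 or 0.182. The mean changed sign, to -0.09 without replicate 1 and to -0.02 without replicate 2. CLDN9, whose gene is the direct neighbour of CLDN6 in the same reference table, was looked at because of that position. Its ratios were -0.26, -0.43, 0.05 and 0.14, opposite in sign to CLDN6 on every array. The orientation difference of CLDN9 had an adjusted p of 0.196 in limma. The ratio of CLDN6 minus that of CLDN9 had an exact sign-flip p of 0.625.

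CLDN7, the claudin known to bind the adhesion molecule EPCAM, turned on 1 pool. Its level was 9.15, 8.89, 8.80 and 8.72 in the 11-month pools of replicates 1 to 4 and 9.47, 8.85, 8.07 and 8.85 in the 14-month pools. The 14-month pool of replicate 3 was the lowest of the 8 and that of replicate 1 the highest. The CLDN7 ratios were -0.31, 0.05, 0.73 and -0.13, with a mean of 0.08 ± 0.46 (SD, n = 4), an interval of -0.33 to 0.49 and an adjusted p of 0.940. Without replicate 3 the mean was -0.13. EPCAM was at 0.08, 0.84, 0.02 and -0.26 and, like CLDN7, had no common sign.

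OCLN, the occludin strand protein, had ratios of 0.40, 0.48, 0.12 and -0.27 in replicates 1 to 4. Its levels were 9.04, 8.81, 8.63 and 8.35 at 11 months and 8.64, 8.34, 8.51 and 8.62 at 14 months, so that the 11-month pools of replicates 1 and 2 were the highest of the 8, while the ages overlapped in the other pools. The mean ratio was 0.18 ± 0.34 (SD, n = 4), positive in 3 of 4 heifers, with an interval of -0.15 to 0.51 and an adjusted p of 0.773. The OCLN mean was 0.084 without replicate 2 and 0.11 without replicate 1, and 0.33 without replicate 4, with an unadjusted limma p of 0.0390 in the last. It was 0.44 in replicates 1 and 2 and -0.08 in replicates 3 and 4, and the orientation difference had an adjusted p of 0.195. The deposited OCLN ratios were 0.49, 0.56, 0.10 and -0.30.

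F11R has a role in early junction assembly through its binding of the polarity protein PARD3, and was read by 2 probes. The brighter, EMBV3_10548, had levels of 12.59, 13.04, 12.97 and 13.17 at 11 months and 12.99, 13.47, 13.08 and 12.84 at 14 months. Its ratios were -0.40, -0.43, -0.11 and 0.33, with a mean of -0.15 ± 0.35 (SD, n = 4), an interval of -0.49 to 0.18 and an adjusted p of 0.828. The mean of this F11R probe was -0.073 without replicate 1, -0.061 without replicate 2 and -0.31 without replicate 4, with an unadjusted limma p of 0.0442 in the last. The dimmer F11R probe, EMBV3_25065, had levels of 9.34, 9.07, 8.83 and 8.65 at 11 months and 9.78, 9.83, 8.58 and 8.41 at 14 months, and the ages overlapped for both probes. It gave ratios of -0.44, -0.76, 0.25 and 0.24, with a mean of -0.18 ± 0.51 and an adjusted p of 0.858. The F11R probes thus shared a sign in replicates 1, 2 and 4, and differed by -0.36 to 0.33 on single arrays. The exact sign-flip p of their difference was 0.75. The dimmer probe had the lower signal in Cy5 on all 4 arrays, the reverse of CLDN6. Its orientation difference had an adjusted p of 0.0758, which with median centring of the arrays became 0.0322.

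CGN, which binds ZO-1 and links the junction to actomyosin, had 3 probes that did not share a direction. The level of the brightest, EMBV3_41371, ran from 8.98 to 9.42 in the 11-month pools and from 8.54 to 9.29 in the 14-month pools. Its ratios were 0.48, 0.13, -0.10 and 0.44, with a mean of 0.24 ± 0.27 (SD, n = 4), an interval of -0.05 to 0.53 and an adjusted p of 0.624. Without replicate 3 the mean of the brightest CGN probe was 0.35, with an unadjusted limma p of 0.0280, and without replicate 1 it was 0.16. The second CGN probe, EMBV3_41713, was at -0.20, -0.28, -0.22 and 0.13, with a mean of -0.14 ± 0.18 and an adjusted p of 0.748. The third, EMBV3_29056, was at -0.09, 0.04, 0.48 and 0.12, with a mean of 0.14 ± 0.24 and an adjusted p of 0.797. The brightest CGN probe exceeded the second on every array, by 0.12 to 0.68, with an exact sign-flip p of 0.125, the smallest possible here. By the same test the brightest against the third gave a p of 0.75, and the second against the third 0.25. The second CGN probe, with the negative mean, was 0.57 to 1.21 above the negative control limit in its 8 pools, and the third 0.30 to 0.68. A direction for CGN is therefore not settled by these probes.

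TJP1, the ZO-1 scaffold that binds the tails of claudins and occludin, was among the least variable of the 8 genes. Its level was 13.03, 12.63, 13.13 and 12.81 in the 11-month pools of replicates 1 to 4 and 13.12, 12.94, 13.01 and 13.09 in the 14-month pools. The TJP1 ratios were -0.09, -0.31, 0.12 and -0.28, with a mean of -0.14 ± 0.20 (SD, n = 4), an interval of -0.39 to 0.11 and an adjusted p of 0.766. With 1 replicate left out the TJP1 mean ran from -0.22 (without replicate 3) to -0.084 (without replicate 2). On the log2 scale the interval reaches 0.39 lower and 0.11 higher at 11 months, for this processing and 4 heifers. With median centring of the arrays the TJP1 mean was -0.20.

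The spread over heifers was above the array's median in most members, which were not set against probes of like brightness. SDs ran from 0.18 to 0.87 with a median of 0.34, and 8 of 11 exceeded the median SD of all tested probes, 0.21, as 50% of probes do. By the brightest probe of each gene, 6 of 8 SDs exceeded it. Part of that spread lay between the orientations, which held replicates 1 and 2 against 3 and 4. At an unadjusted p under 0.05 the orientation difference was found for 5 of 11 probes, CLDN3, CLDN6, OCLN and both F11R probes, against 20.4% of all probes. CLDN3 and CLDN6 passed the adjusted threshold, which 1.41% of all probes did, with opposite signs. In 2 of 11 probes, CLDN6 and the dimmer F11R probe, replicates 1 and 2 shared a sign and replicates 3 and 4 the opposite one, against 24.9% of all probes. Across all tested probes the ratios of replicates 1 and 2 correlated at r = 0.58 and those of 3 and 4 at r = 0.28, against -0.18 to 0.14 between orientations, as a description of probes that are not independent. The median ratio of the trophectoderm markers was 0.27, 0.24, 0.02 and -0.15 in replicates 1 to 4, and the part of this in the junction genes was not tested.

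**Figure D3:**
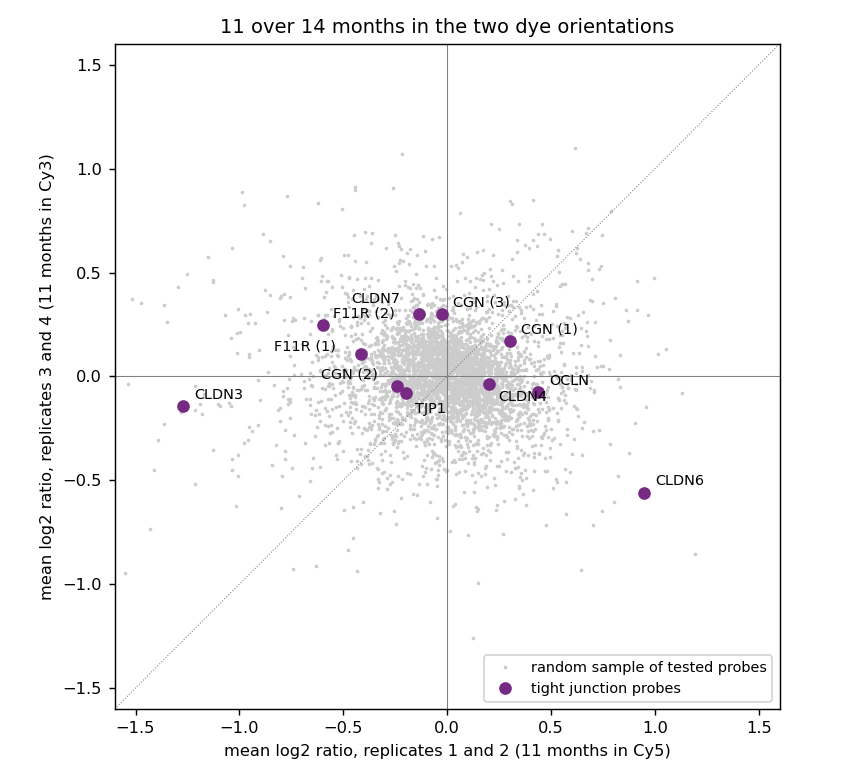
Mean log2 ratio of the 2 heifers with 11 months in Cy5 (x axis) against that of the 2 heifers with 11 months in Cy3 (y axis), for the 11 tight junction probes (labelled) and a random sample of 4000 tested probes (grey). Points near the dotted line have the same ratio in both pairs. CLDN3, at -1.27 and -0.14, and CLDN6, at 0.95 and -0.56, lie farthest from it among the 11.

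The rest of the junction and polarity machinery was examined through 4 lists, of which 49 genes were tested by their brightest probe. None passed the adjusted threshold, and the median ratio was -0.02. Unadjusted p-values under 0.05 were found for 2 genes higher at 11 months and 5 lower, against 3.7% and 5.76% of all probes. In 14 of 49 the signs were opposed between the orientations, against 24.9% of all probes, and 0 passed the adjusted threshold for the orientation term, against 1.41%. The 4 genes named from each list have its smallest unadjusted p. That choice favours genes with 1 sign on all 4 arrays, which 16.7% of all probes had.

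The 14 other claudins had a median of 0.02, and by the same unadjusted count 1 was higher and 1 lower. CLDN12 was at 0.29 ± 0.24 (SD, n = 4), positive in 4 of 4 heifers, with an adjusted p of 0.493. CLDN2, which forms a cation pore, was at -0.32 ± 0.31, with an adjusted p of 0.515. It was negative in 4 of 4, though at only -0.0005 in replicate 3, and above the control limit in 3 of 4 younger pools. The barrier claudin CLDN1 was at -0.24 ± 0.23 and CLDN20, above the limit in 2 of 4 older pools, at 0.11 ± 0.04. CLDN14 and CLDN10, named after their values were seen, had the widest spreads of this list. CLDN14 was at -1.38, -1.62, -0.11 and 0.94 in replicates 1 to 4, and CLDN10 at 0.49, -0.14, -1.69 and -0.22. The low CLDN10 value came from replicate 3 and the low CLDN14 values from replicates 1 and 2.

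The 11 other junction membrane proteins had a median of -0.05, with 0 counted higher and 2 lower. MARVELD3, a relative of occludin, was at -0.37 ± 0.27 (SD, n = 4), negative in 4 of 4 heifers, with an adjusted p of 0.439. ILDR2, of the angulin family found where 3 cells meet, was at -0.39 ± 0.38 with an adjusted p of 0.494, and 1 of its other 2 probes had the opposite sign. Its relative ILDR1 was at -0.13 ± 0.09, and the adhesion protein CLMP at 0.23 ± 0.41. The 8 other plaque proteins had a median of -0.01, with 1 counted higher and 1 lower. RAB13, a small GTPase that carries junction proteins to the membrane, was at 0.34 ± 0.21, positive in 4 of 4 heifers, with an adjusted p of 0.437. ARHGEF2, a RhoA activator held at the junction by cingulin, was at -0.30 ± 0.22, negative in 4 of 4, with an adjusted p of 0.469. The ZO-1 partner YBX3 was at 0.18 ± 0.07 and the scaffold MAGI3 at 0.12 ± 0.08, the latter above the control limit in 1 of 4 older pools.

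The 16 apical polarity proteins had a median of -0.03, with 0 counted higher and 1 lower. That gene was LIN7B, a scaffold of the Crumbs complex, at -0.34 ± 0.13 (SD, n = 4), negative in 4 of 4 heifers, with an adjusted p of 0.416. It had 5 tested probes, of which 1 had the opposite sign. The atypical protein kinases C, PRKCZ and PRKCI, were at -0.38 ± 0.43 and -0.35 ± 0.48, and AMOT, an angiomotin that can bind YAP, at -0.31 ± 0.37. In replicates 1 and 2 these 3 had mean ratios of -0.73, -0.72 and -0.62, and in replicates 3 and 4 of -0.02, 0.03 and 0.00. None of the 3 orientation differences passed, with adjusted p of 0.107, 0.124 and 0.118 in limma.

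**Figure D4:**
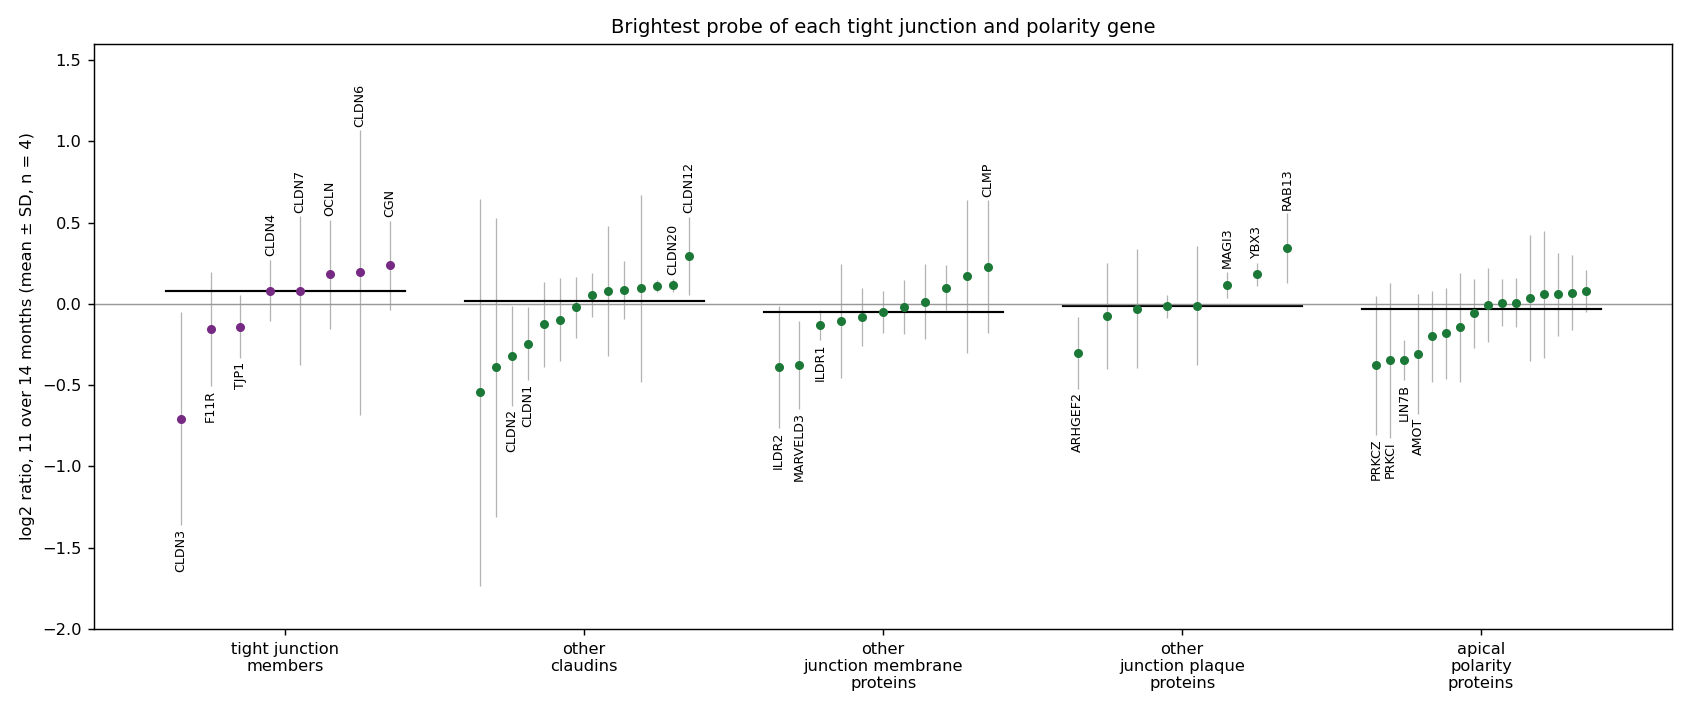
Log2 ratio (11 over 14 months, y axis, mean ± SD over 4 heifers) of the brightest probe of each tested gene in 5 groups, sorted within a group, with the group's median as a black line. The 8 genes of the set and the 4 genes with the smallest unadjusted p in each other group are labelled, and the other genes scatter around 0 with medians from -0.05 to 0.02.

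The genes whose ratios were most like those of CLDN3, the member with the smallest unadjusted p, were sought by Euclidean distance over the 4 arrays among 13518 named genes. They were NDUFA11, a subunit of respiratory complex I, at a distance of 0.22, SCUBE3, a secreted protein with EGF domains, at 0.24, and ANAPC11, the RING subunit of the anaphase-promoting complex, at 0.29. NDUFA11 was at -1.53, -1.11, -0.20 and -0.15, SCUBE3 at -1.16, -1.19, -0.22 and -0.11, and ANAPC11 at -1.12, -1.26, -0.20 and -0.06. All 3 share with CLDN3 the strongly negative values of replicates 1 and 2 alone. With 4 values each, and distances taken over so many genes, such likeness is a description of these arrays.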

How the data were processed

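Per the file headers, the authors deposited spot intensity and local background intensity for Cy3 and Cy5, without correction. They also deposited normalized log2 ratios. Their normalization method was not given in the sources used here. When compared with background-subtracted, loess-normalized scanner ratios of the same array, the matrix columns had r between 0.986 and 0.993 and slopes between 0.884 and 1.08, which gave base 2 and the direction 11 over 14 months. Their medians were 0.00853, 0.00336, 0.00104 and 0.0234, and the authors' centring stays unknown. Per the labels' protocols, RNA was amplified linearly in 2 rounds before labelling, which can alter the relation between transcripts.

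In R 4.3.3 with limma 3.58.1, median signals were corrected by normexp with an offset of 50 and normalized by loess, with 1426 control spots at weight 0. The offset draws ratios of dim probes towards 0. The main ratios came from the scanner files so that ratios and levels share a source, and the deposited ratios are given beside them. Probes had to exceed the mean plus 2 SD of 153 negative controls in mean intensity, which removed 7347. Tests used lmFit and eBayes on the mean ratio, and in a second fit an added dye orientation term, two-sided, with Benjamini-Hochberg adjustment over 36447 probes. The number of arrays, 4, limits the precision. The ratio within an array pairs the ages of a heifer. Levels were scaled between arrays by Aquantile. No spot of the 11 probes carried the ignore mark, and the 46 marked spots of other probes were kept.

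Symbols came from GEO's platform annotation, with 1 symbol for 21790 probes, no symbol for 22004 and no probe with several. All 8 symbols match the ARS-UCD2.0 table, and lists were matched also through synonyms. No build is given for the array, so no coordinates are printed. The members and lists were chosen with earlier results of these data known. Named are all member probes, the 4 genes of each other list with the smallest unadjusted p on the brightest probe, and the 3 genes nearest to the member with the smallest p. The scripts were tested on simulated data. Plots used Python 3.11.15 and matplotlib 3.10.9.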

Additional observations from a re-analysis of the deposited data

Results flagged for a closer look

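The orientation difference of CLDN3 (mean ratios of -1.27 in replicates 1 and 2 and -0.14 in replicates 3 and 4) and that of CLDN6 (0.95 and -0.56) passed limma's moderated test, with adjusted p of 0.0350 and 0.0197. The dimmer F11R probe had negative ratios in replicates 1 and 2 and positive ones in replicates 3 and 4, with a coefficient of the orientation term (coded 1 and -1) of -0.423 and an adjusted p of 0.0758. Dye and heifer pair cannot be told apart in these differences.

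Among the 4 CLDN4 levels at 11 months, that of replicate 2 stood apart at 13.05, with its gap to the next pool at 0.831 of the whole range, just over Dixon's critical value. Of 33 such groups tested this was the only one, and chance flags about 5% of them.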

How the results depend on the processing

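The age difference was recomputed for the 11 probes under 12 alternatives, 132 values in all, of which 127 kept their direction and 0 passed an adjusted p of 0.05. The 5 that reversed came with 1 replicate left out: CLDN4 without replicate 1 (range -0.000604 to 0.15), CLDN6 without replicate 1 or 2 (-0.091 to 0.46), the dimmer F11R probe without replicate 2 (-0.32 to 0.018) and CLDN7 without replicate 3 (-0.13 to 0.22). Within the orientations, given as values with no test beside those 12, the mean turned against that of the full fit for 7 of 11 probes. In replicates 3 and 4 it was -0.038 for CLDN4, -0.56 for CLDN6, -0.076 for OCLN, and 0.11 and 0.25 for the brighter and dimmer F11R probes. In replicates 1 and 2 it was -0.13 for CLDN7 and -0.025 for the CGN probe EMBV3_29056. CLDN3, TJP1 and the other CGN probes, 4 in all, kept their sign within both. The same was not counted over all tested probes, so the 7 and the 4 are not read as a trait of the members. CLDN3 ranged from -0.91 to -0.49 over the 12, with unadjusted p from 7.28e-05 to 0.130. The lowest p came with the dye term, which also takes out the difference between the pairs of heifers. All probes past the adjusted threshold numbered 0 under every alternative. The number of all probes at an unadjusted p under 0.05 was 2050 with median centring, 5936 with a dye term, 2056 without the array as a replicate block, and 1557 (without replicate 2) to 3956 with 1 replicate left out. Among the 11 probes it was 0 with median centring or mean foreground signals, 2 with the dye term, and 0 to 3 with 1 replicate left out (0 without replicate 1 or 2; CLDN3 and the brightest CGN probe without 3; CLDN3, OCLN and the brighter F11R probe, 3 in all, without 4). The same fit without the pairing gave 1 such probe, as in the paired fit.

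The orientation term was tried under alternatives chosen after seeing the data. For CLDN6 it was 0.51 with the deposited ratios, no longer past the threshold. With 1 replicate left out, where the lone array of an orientation is assumed to vary like the others, it was 0.70 to 0.80 for CLDN6, lost without replicates 1 and 2, and -0.61 to -0.52 for CLDN3, lost without replicates 1, 2 and 3. That of the brightest CGN probe, 0.07 in the full fit and not past the threshold, was -0.15 with median centring and -0.068 to 0.20 with 1 replicate left out, below 0 without replicate 1 or 3. That of TJP1, -0.06 in the full fit, was -0.16 to 0.041, above 0 without replicate 3. For values that reversed or lost the threshold the cause was not tested, beyond the fewer arrays when 1 is left out. CLDN3 and 2 CGN probes had signals close to the negative control limit.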
